A study of Mus musculus with 12 samples.

Results

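Min6 cells treated for 48 h with the FoxO1 inhibitor AS1842856 and with loperamide together were compared with Min6 cells kept for 48 h in the solvent DMSO, across all genes of the transcriptome. The comparison uses 6 of the 12 mRNA sequencing libraries of the series, and these were taken by their labels, not by any measured value. In 3 libraries, labelled FoxOi_Loperamide, the cells had received 1 µM of the inhibitor (FoxOi) and 5 µM of loperamide, and this group is called the combination. In 3 libraries, labelled DMSO, they had received neither compound. The other 6 libraries, 3 with FoxOi alone (1 µM, 48 h) and 3 with loperamide alone (5 µM, 48 h), belong to the same statistical model and serve to show where the combination differs from each compound. All groups are the same cell line and no group carries a gene deletion, so the results describe 1 line. Whether a group's 3 libraries stand for separate cultures is not stated in the labels, so p-values measure the spread between these libraries, which may be technical.

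Min6 is an insulin-secreting line from a mouse insulinoma driven by the large T antigen of a simian virus, a protein that binds p53 and the retinoblastoma protein. FoxO1 is a transcription factor that insulin signalling keeps out of the nucleus, and in beta cells it is known as a guard of the mature state. AS1842856 binds FoxO1 and blocks its transcriptional activity. Loperamide is an agonist of opioid receptors that is used against diarrhoea, and as a cationic amphiphilic compound it belongs to a class that collects in lysosomes. By the title of the series, the inhibitor serves to dedifferentiate beta cells, and the questions concern how FoxO1 acts on glucagon and on the maturation of insulin. A beta cell threads proinsulin into the endoplasmic reticulum (ER), where chaperones and disulfide isomerases fold it. COPII vesicles carry it to the Golgi, and convertases then process it in dense-core granules.

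The combination libraries held 15018492 to 17539431 counts and the DMSO libraries 14358011 to 17045589. Libraries of the same group lay closer to each other than to the other group: the root mean square difference in log2 level over tested genes was 0.343 to 0.401 within the combination and 0.355 to 0.488 within DMSO, against 0.775 to 0.861 between the groups. The insulin gene Ins2 took 1.89% to 2.20% of all counts in the combination libraries and 3.56% to 5.20% in the DMSO libraries. Genes annotated on the mitochondrial chromosome took 2.38% to 3.30% in the combination libraries and 1.40% to 1.94% in the DMSO libraries. These shares leave out nuclear copies of mitochondrial sequence, described below, which may share their reads. The labelled cell type was checked with markers. Ins1, Ins2, Iapp, Pdx1, Nkx6-1, Mafa, Slc30a8 and G6pc2 were detected in every library of both groups. The defining markers of acinar cells (Cpa1, Prss2 and Ptf1a) had 0 counts in all 6 libraries, those of duct cells (Krt19, Cftr), leukocytes (Ptprc) and endothelium (Cdh5, Kdr) had at most 1 count in any library. Other genes of these lists were above that. The duct marker Spp1 had 18, 22 and 14 counts in the combination libraries and 96, 125 and 78 in the DMSO libraries (log2 fold change ± SE of -2.62 ± 0.20, adjusted p = 1.25e-07). The endothelial marker Pecam1 had 5, 3 and 1 counts in the combination libraries and 7, 24 and 5 in the DMSO libraries (-2.11 ± 0.67, adjusted p = 0.0183), a call lost without combination replicate 3 (adjusted p = 0.0685), without DMSO replicate 2 (0.194) and with limma on FPKM (0.0947), and the acinar marker Cela2a had 1, 0 and 0 counts in the combination libraries and 6, 1 and 3 in the DMSO libraries. Gcg, Ttr, Krt7 and Snap25, each also on a list of markers of other cells, were well expressed in both groups. The duct marker Krt7 changed by -1.08 ± 0.16, and Gcg and Ttr are described with the hormones. The neuron marker Snap25, also on the list of exocytosis genes, changed by -0.76 ± 0.08. The neuron marker Tubb3 had 1860, 1251 and 1371 counts in the combination libraries and 1615, 1552 and 1053 in the DMSO libraries and was not called. Rbfox3 had 2, 2 and 3 counts in the combination libraries and 14, 15 and 6 in the DMSO libraries (-2.41 ± 0.62, adjusted p = 0.00564, or 0.0673 with limma on FPKM). The fibroblast marker Col1a2 had 2, 0 and 3 counts in the combination libraries and 20, 17 and 15 in the DMSO libraries (-3.44 ± 0.55, adjusted p = 0.000133). Col1a1 changed by -0.86 ± 0.28 (adjusted p = 0.0218). Its call was lost without combination replicate 2 (0.0502) or 3 (0.0711), without DMSO replicate 1 (0.0713) or 2 (0.0963) and with limma on FPKM (0.0805). The part of the duct, neuron, endothelial, acinar and fibroblast markers in the results was not tested.

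Of 55487 genes in the files, 16808 had enough counts to be tested. At an adjusted p under 0.05 in edgeR's quasi-likelihood test, 7642 of them were called, which is 45.5%. Of these, 3749 were higher in the combination than in DMSO (22.3% of tested genes) and 3893 were lower (23.2%). Counts of called members of a gene list, given below, are read against these shares. Large falls outnumbered large rises: 808 genes rose and 1509 fell by at least 2-fold, 153 rose and 394 fell by at least 4-fold, and 45 rose and 130 fell by at least 8-fold. From the lowest to the highest quartile of level, 1025, 544, 325 and 423 called genes changed by at least 2-fold. In the same order, 12.1%, 23.3%, 28.4% and 25.4% of genes were called higher and 20.9%, 22.5%, 21.3% and 28% lower. Of the called genes, 5325 changed by less than 2-fold, and the median absolute log2 fold change of called genes was 0.69. The median log2 fold change of all tested genes was 0.01, with quartiles at -0.38 and 0.35. The 3 libraries of the combination and the 3 of DMSO did not overlap for 8755 genes, or 52.1%. Statements below that a gene's groups did not overlap are read against this share. The largest rises and falls were picked only among genes without overlap, so for them the lack of overlap was fixed by the choice. They include Sema6a, Phlda3, Bhlhe40, Jun, Trp53inp1, Atf3, Pdyn, Etv5, Rian, Bhlha15 and Meg3.

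**Figure D1:**
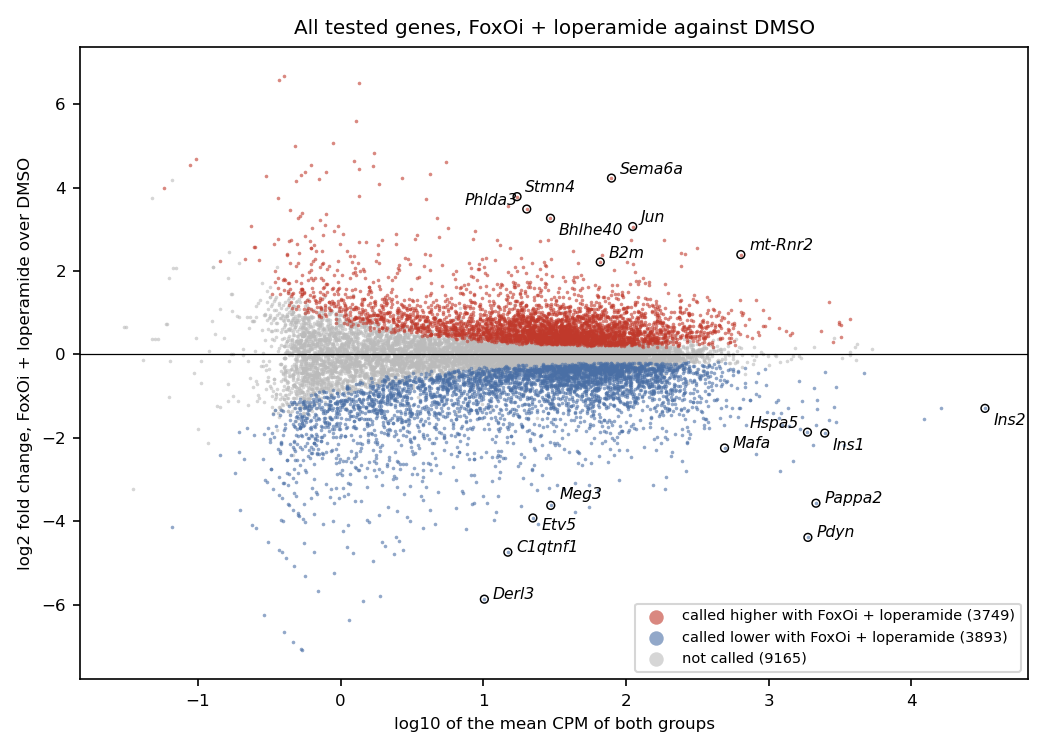
Log2 fold change of each tested gene in the combination over DMSO (vertical axis) against the log10 of its mean CPM in both groups (horizontal axis), with 1 gene at 0 in both groups not drawn. Red points are the 3749 genes called higher, blue points the 3893 called lower, and grey points the rest, and the highest fold changes among well expressed genes include the rise of Sema6a and the falls of Pdyn and Pappa2.

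Insulin and most of the peptide hormones of these cells fell. Levels are in CPM, counts scaled to the size of the library, and fold changes are log2 values of the combination over DMSO with their standard error (SE). Ins1 (ENSMUSG00000035804, chromosome 19, 52264297 to 52265476; GRCm38 here and below) had 1131, 1072 and 955 CPM in the combination libraries, against 4669.7, 3955 and 3055 CPM in the DMSO libraries. The combination libraries were all below the lowest DMSO library, and the change was -1.89 ± 0.14 (adjusted p = 5.99e-08). Ins2, the more abundant insulin gene by FPKM, had 20988, 17752 and 18286 CPM in the combination libraries, against 56661, 45732 and 37473 CPM in the DMSO libraries, again with no overlap (-1.29 ± 0.13, adjusted p = 1.5e-06). Reads from these 2 similar genes can be split between them by counting, and both fell. Islet amyloid polypeptide (Iapp), which is co-secreted with insulin, had 6704, 5563 and 6440.2 CPM in the combination libraries, against 19788, 18075 and 16898 CPM in the DMSO libraries. Cholecystokinin (Cck), a gut and brain peptide, had 1217, 1079.8 and 1384 CPM in the combination libraries, against 5782, 5255 and 5437 CPM in the DMSO libraries. Neither gene's groups overlapped, and the changes were -1.55 ± 0.10 and -2.16 ± 0.11. Gcg, the glucagon gene, had 690.2, 549.6 and 519 CPM in the combination libraries, against 778, 807 and 567 CPM in the DMSO libraries. These groups overlapped and Gcg was not called (-0.29 ± 0.19, adjusted p = 0.247), while the adjusted p was 0.0293 in a fit with a block for the replicate number and 0.0191 with no filter on low counts, and both called it.

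Of 14 hormone genes tested, 10 fell and 1 rose, with a list median of -1.72 against 0.01 for all genes. Tph1, which makes the serotonin precursor, changed by -3.08 ± 0.22, galanin (Gal) by -2.73 ± 0.41, gastrin (Gast) by -2.55 ± 0.43 and somatostatin (Sst) by -2.16 ± 0.47. Ucn3, known as a sign of beta cell maturity, averaged 2.21 ± 0.693 CPM in the combination and 11.3 ± 2.187 CPM in DMSO (SD, n = 3 each) and changed by -2.34 ± 0.23. Neuropeptide Y (Npy) changed by -0.63 ± 0.21 (adjusted p = 0.0247), a call lost without combination replicate 2 (adjusted p = 0.0793) or 3 (0.0801) and without DMSO replicate 1 (0.109) or 2 (0.0862). The pancreatic polypeptide gene Ppy was at -1.19 ± 0.72 (adjusted p = 0.208), with 64, 197 and 39 counts in the combination libraries and 231, 291 and 110 in the DMSO libraries. It was called with the replicate block (adjusted p = 0.0227), without combination replicate 2 (0.0446) and with no filter on low counts (1.76e-11). The riser was neurotensin (Nts), with 4, 6 and 8 counts in the combination libraries and 0, 2 and 1 in the DMSO libraries (2.29 ± 0.82, adjusted p = 0.0331), and its call was lost without combination replicate 2 (adjusted p = 0.0672) or 3 (0.101) and without DMSO replicate 1 (0.106) or 3 (0.062). Prodynorphin (Pdyn), the precursor of the dynorphin opioid peptides, was among the 8 genes that lost the most CPM, and it had 168, 194 and 153 CPM in the combination libraries, against 3517, 3586 and 3687 CPM in the DMSO libraries. Its groups lay far apart, at a log2 change of -4.39 ± 0.15 (adjusted p = 9.21e-11). Ttr, an alpha cell marker that other islet cells also express, had 487, 462 and 337 CPM in the combination libraries, against 3041, 2486 and 2033 CPM in the DMSO libraries and fell (-2.56 ± 0.25). The summed counts of 6 alpha cell markers, Gcg and Ttr among them, ran from 14288 to 21930 per combination library and from 35845 to 60192 per DMSO library, and their part in these results was not tested.

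The transcription factors that hold the beta cell state were lower or did not pass the test, and none rose. Of 20 tested, 12 fell and 8 were not called, with a list median of -0.60. Mafa, which switches on insulin transcription (ENSMUSG00000047591, chromosome 15, 75745490 to 75748228), had 162, 171 and 179.8 CPM in the combination libraries, against 805, 846 and 782 CPM in the DMSO libraries. The groups were far apart (-2.25 ± 0.15, adjusted p = 2.95e-08). Pdx1, which is needed for the pancreas and for beta cells, had 216, 224 and 255 CPM in the combination libraries, against 369, 378 and 414 CPM in the DMSO libraries, with every combination library below every DMSO library (-0.74 ± 0.08, adjusted p = 4.71e-06). Nkx2-2 changed by -1.72 ± 0.10, Hnf4a by -1.74 ± 0.13, Isl1 by -1.10 ± 0.07 and Pax6 by -0.62 ± 0.07. Nkx6-1 was called at -0.33 ± 0.11 (adjusted p = 0.0235), and the call was lost without combination replicate 2 (adjusted p = 0.0599) or 3 (0.0785) and without DMSO replicate 1 (0.0501) or 2 (0.0942). Foxo1, the target of the inhibitor, had 39.7, 38.4 and 44.7 CPM in the combination libraries, against 31.6, 35.6 and 40.6 CPM in the DMSO libraries. The mRNA was not called (0.19 ± 0.11, adjusted p = 0.161, or 0.0309 with the replicate block), and an inhibitor of the protein need not change its mRNA, so this does not check the treatment. Of the 4 FoxO genes, Foxo3 rose (0.53 ± 0.09, adjusted p = 0.000235). Of 22 tested FoxO targets 8 rose and 5 fell, with a list median of 0.01, or 0.18 without DMSO replicate 3. The risers included Bcl6 (2.03 ± 0.23) and Klf6 (1.43 ± 0.15), and those that fell included Tnfsf10 (-1.39 ± 0.24), Fbxo32 (-0.84 ± 0.15) and Irs2 (-0.73 ± 0.12), which encode a death ligand, a ubiquitin ligase subunit and an insulin receptor substrate.

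Most genes of prohormone processing and of the secretory granule fell. Of 20 genes of prohormone processing and granules, 16 fell and 1 rose (list median -1.07), and 2 rose without DMSO replicate 3 or with the replicate block. The proinsulin convertase gene Pcsk1 had 274, 267 and 275 CPM in the combination libraries, against 624, 654 and 701 CPM in the DMSO libraries, with no overlap (-1.28 ± 0.09, adjusted p = 4.43e-08), and Pcsk2 changed by -1.25 ± 0.09. The carboxypeptidase gene Cpe changed by -0.45 ± 0.08, the amidating enzyme Pam by -1.90 ± 0.13, the granins Chga and Chgb by -1.28 ± 0.12 and -1.63 ± 0.09, and the granule membrane protein Ptprn by -1.70 ± 0.08. The gene that rose was Sytl4, which encodes the granule docking protein granuphilin (0.89 ± 0.17, adjusted p = 0.000982). Glucose sensing and exocytosis genes were divided: of 23, 9 fell and 3 rose (list median -0.27), and 14 fell with the replicate block. Cplx2 and Rab3a, which act in vesicle fusion, changed by -1.53 ± 0.09 and -1.26 ± 0.11, while the calcium channel Cacna1c rose by 0.94 ± 0.13. Of 17 G protein-coupled receptors of beta cells 13 fell and 0 rose (list median -1.12), while 1 rose without combination replicate 1 or DMSO replicate 3 and 2 with the block. Among them were the fatty acid receptor Ffar1 at -2.11 ± 0.11, the somatostatin receptor Sstr3 at -2.04 ± 0.12, the GIP receptor Gipr at -1.08 ± 0.13 and the GLP-1 receptor Glp1r at -0.32 ± 0.08.

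**Figure D2:**
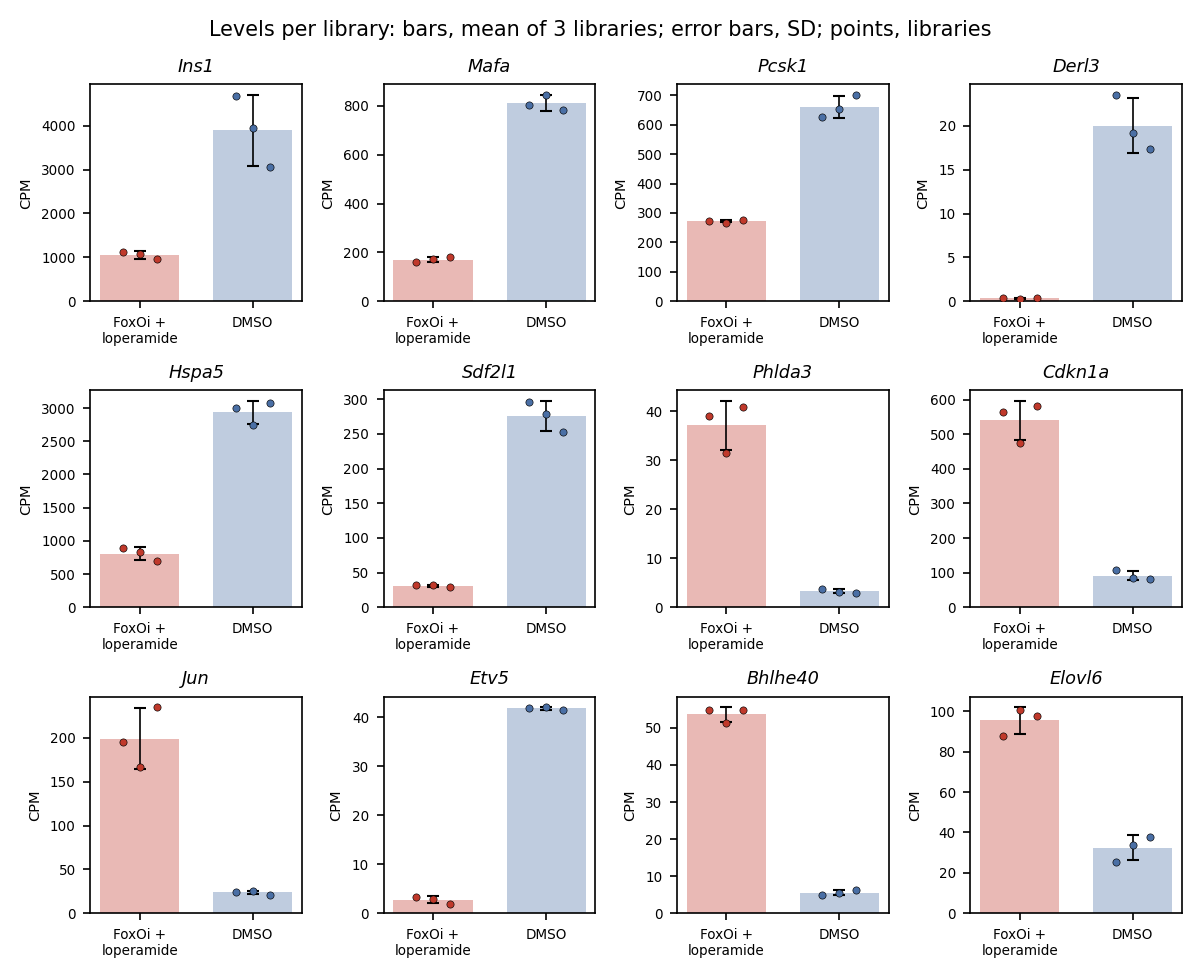
CPM of 12 genes in the combination (left of each panel, red) and in DMSO (right, blue), with bars for the mean of 3 libraries, error bars for the SD and points for libraries. The 3 combination libraries and the 3 DMSO libraries did not overlap for any of the 12 genes, nor for 52.1% of all tested genes. Derl3, Phlda3, Jun, Etv5 and Bhlhe40 are among the largest rises and falls, which were picked only among genes without overlap. Derl3 was at 0.334 ± 0.0887 CPM in the combination and 20.02 ± 3.18 CPM in DMSO (SD, n = 3 each). Phlda3 was at 37.1 ± 5.02 CPM in the combination and 3.30 ± 0.366 CPM in DMSO (SD, n = 3 each).

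Most genes of the machinery that folds, glycosylates and exports secretory proteins fell. Of 26 tested ER chaperones and folding enzymes, 23 fell and 0 rose (1 with the replicate block), with a list median of -1.41. Hspa5, the ER chaperone BiP (ENSMUSG00000026864, chromosome 2, 34771970 to 34777547), had 893, 831 and 695 CPM in the combination libraries, against 2994, 2744 and 3073 CPM in the DMSO libraries. Its groups were well separated (-1.87 ± 0.10, adjusted p = 2.2e-09). Sdf2l1, a partner of BiP, had 31.8, 32.6 and 29.8 CPM in the combination libraries, against 296, 279 and 253 CPM in the DMSO libraries (-3.13 ± 0.11, adjusted p = 9.21e-11). The nucleotide exchange factor Hyou1 had 262, 265 and 252 CPM in the combination libraries, against 1333, 1328 and 1429 CPM in the DMSO libraries (-2.39 ± 0.09, adjusted p = 3.41e-10). Neither overlapped between the groups. The disulfide isomerases Pdia4 and P4hb changed by -2.35 ± 0.08 and -2.17 ± 0.09, the prolyl isomerase Fkbp11 by -3.24 ± 0.21 and the secreted stress factor Manf by -2.01 ± 0.13. Of 24 genes of the translocation channel, the signal recognition particle and signal peptidase, 22 fell and 1, Sec61a2, rose (list median -1.12), with the SRP receptor Srpr at -1.68 ± 0.09 and the channel subunit Sec61a1 at -1.29 ± 0.08. Of 29 genes of N-glycosylation 23 fell and 2 rose (1 without DMSO replicate 2; list median -1.02), with Gmppb, which makes GDP-mannose, at -2.59 ± 0.11 and the oligosaccharyltransferase subunit Ddost at -1.57 ± 0.09. Of 33 genes of COPII and COPI transport 32 fell and 0 rose (list median -1.04), with the KDEL receptor Kdelr3 at -3.10 ± 0.18, the cargo adaptor Sec24d at -2.46 ± 0.12 and the cargo receptor Surf4 at -1.69 ± 0.08.

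The sensors and degradation branch were less uniform. Of 19 genes of ER-associated degradation 10 fell and 1 rose (list median -0.33), with 2 risers without combination replicate 3 and 3 with the replicate block. Derl3, a derlin of the degradation channel (ENSMUSG00000009092, chromosome 10, 75893413 to 75895941), had 0.326, 0.250 and 0.427 CPM in the combination libraries, against 23.5, 19.2 and 17.3 CPM in the DMSO libraries, the largest fall by the naming rule (-5.87 ± 0.28, adjusted p = 1.28e-09). In counts that was 6, 4 and 7 in the combination libraries, against 368, 309 and 236 in the DMSO libraries. Edem2 and Syvn1 changed by -1.67 ± 0.09 and -1.37 ± 0.08, while Derl1 rose by 0.38 ± 0.08. Of 15 stress sensors and their factors 7 fell and 3 rose, and 5 rose with the replicate block. Xbp1, the transcription factor downstream of the sensor IRE1, changed by -1.85 ± 0.11, its activator gene Ern1 by -1.29 ± 0.16 and the ER-bound factor Creb3l2 by -2.29 ± 0.13. Ddit3, which encodes CHOP, rose by 1.66 ± 0.26 (adjusted p = 0.000279) and Ppp1r15a, which encodes the phosphatase subunit GADD34, by 1.14 ± 0.17. The symbol Ddit3 stands for more than 1 annotated gene, and these values are those of ENSMUSG00000025408 only. Bhlha15 (MIST1), a transcription factor of secretory cells, had 8.11, 10.3 and 5.92 CPM in the combination libraries, against 113, 101 and 93.0 CPM in the DMSO libraries, far apart (-3.66 ± 0.17, adjusted p = 1.28e-09).

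Many ER genes are known to carry an ER stress element, which ATF6 and XBP1 act through, and promoter windows were searched for its letters. The windows are those of RefSeq on GRCm38.p6 and reach from 250 bases before to 50 bases after the start of a gene. The element was searched as CCAAT, then 9 bases of any kind, then CCACG, on both strands. Of the 21 tested ER chaperones and folding enzymes with a window, 7 held it, or 33.3%. Over all 27025 genes with a window, tested or not, 37 held it, or 0.137%. The 7 on the list are named next. They were Calr, Canx, Creld2, Dnajc3, Hsp90b1, Hspa5 and Pdia6. The counts were 2 of 14 for ER-associated degradation (Derl3 and Syvn1), 1 of 24 for N-glycosylation (Alg12), 0 of 17 for translocation and 0 of 28 for COPII and COPI transport. A second element, searched as ATTGG, then 1 base of any kind, then CCACG, was in 12 of all genes, Dnajb11, Herpud1 and Krtcap2 of the ER lists among them. A match describes the letters only, and a window without one says nothing about a factor. The windows below belong to the 4 called ER genes with the largest falls whose upstream bases hold the element outside any annotated exon, which left out Hspa5, where GENCODE vM21 starts the first exon before the RefSeq start and the element lies in that exon. They run 5′ to 3′ along the gene, limited to 35 bases on either side of the element where the window and the nearest exon allow, with the element in capitals, which reads CGTGG first where it lies on the other strand.
Derl3 (chr10:75893207-75893295, + strand): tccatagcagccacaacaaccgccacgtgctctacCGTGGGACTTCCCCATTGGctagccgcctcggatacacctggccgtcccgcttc
Creld2 (chr15:88819485-88819573, + strand): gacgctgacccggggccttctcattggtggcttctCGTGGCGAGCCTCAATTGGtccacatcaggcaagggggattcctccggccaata
Hsp90b1 (chr10:86705510-86705691, - strand): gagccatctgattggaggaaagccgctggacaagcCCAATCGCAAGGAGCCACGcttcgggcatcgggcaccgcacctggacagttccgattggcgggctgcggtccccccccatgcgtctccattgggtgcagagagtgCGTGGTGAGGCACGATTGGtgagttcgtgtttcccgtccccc
Pdia6 (chr12:17266456-17266544, + strand): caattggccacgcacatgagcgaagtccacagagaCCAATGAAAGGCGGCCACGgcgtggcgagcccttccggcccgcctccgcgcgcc
Counted from the RefSeq start, the element lay 156 to 138 bases before it in Derl3, 126 to 108 in Creld2 and 98 to 80 in Pdia6. Hsp90b1 held it at 212 to 194 bases and, on the other strand, at 107 to 89 bases. Creld2, a secreted ER stress protein, changed by -2.30 ± 0.12, Hsp90b1, the ER chaperone GRP94, by -1.78 ± 0.09 and the disulfide isomerase Pdia6 by -1.73 ± 0.08.

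Most targets of p53 rose. Of 24 tested, 21 rose and 1 fell, with a list median of 1.5. The fall was called only without DMSO replicate 1 among the 6 fits that left out a library. Cdkn1a, the cell cycle inhibitor p21 (ENSMUSG00000023067, chromosome 17, 29090976 to 29100727), had 564, 475 and 581 CPM in the combination libraries, against 107, 84.3 and 82.8 CPM in the DMSO libraries, with no overlap (2.56 ± 0.13, adjusted p = 1.78e-09). Phlda3, a repressor of AKT, had 39.0, 31.4 and 40.9 CPM in the combination libraries, against 3.71, 3.17 and 3.01 CPM in the DMSO libraries (3.49 ± 0.20, adjusted p = 5.32e-09). Trp53inp1, which promotes cell death and autophagy, had 152, 188 and 224 CPM in the combination libraries, against 22.3, 26.0 and 36.6 CPM in the DMSO libraries (2.74 ± 0.27). Neither overlapped. The nuclease Aen rose by 1.67 ± 0.10, the kinase Plk2 by 1.86 ± 0.14, cyclin G1 (Ccng1) by 2.11 ± 0.17, the receptor Eda2r by 2.55 ± 0.43, the death effector Bax by 1.5 ± 0.14 and Mdm2, the ubiquitin ligase of p53, by 0.91 ± 0.08.

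ATF4 targets, the genes of the integrated stress response, rose in 24 of 29 cases and fell in 0, or 1 with the replicate block (list median 0.78). Atf3 had 54.5, 42.2 and 34.3 CPM in the combination libraries, against 7.42, 6.29 and 6.09 CPM in the DMSO libraries (2.73 ± 0.23, adjusted p = 5.59e-07). Trib3, a pseudokinase that restrains AKT and ATF4, had 212, 193 and 139 CPM in the combination libraries, against 63.0, 61.6 and 34.7 CPM in the DMSO libraries (1.77 ± 0.27, adjusted p = 0.000261). Both were higher in every combination library than in any DMSO library, which for Atf3 was a condition of its choice. The mTORC1 inhibitors Ddit4 and Sesn2 rose by 2.02 ± 0.19 and 1.10 ± 0.12, and the glycine transporter Slc6a9 by 1.58 ± 0.10. Atf4 mRNA itself was not called (0.36 ± 0.16, adjusted p = 0.0851, or 1.15e-06 with the replicate block), and it was called without combination replicate 3 (adjusted p = 0.0422) or DMSO replicate 1 (0.042) and with no filter on low counts (0.000629). Of 20 amino acid transporters 11 rose and 2 fell (list median 0.47), and of 19 aminoacyl-tRNA synthetases 8 rose and 4 fell, with Sars at 0.83 ± 0.09 and Wars at -0.63 ± 0.07. The falls among the synthetases numbered 2 without combination replicate 1 or DMSO replicate 2. NRF2 targets were divided, with 8 of 21 higher and 4 lower, or 7 lower with the replicate block. Hmox1, which degrades haem, had 421, 382 and 422 CPM in the combination libraries, against 86.2, 76.8 and 64.0 CPM in the DMSO libraries and rose clear of the DMSO libraries (2.43 ± 0.16, adjusted p = 3.06e-08). Of 18 cytosolic heat shock genes 3 rose and 6 fell (list median -0.03). Some lists share members, so their counts are not independent. Slc6a9 and Slc3a2 are on the lists of ATF4 targets and of amino acid transporters. Cars is on those of ATF4 targets and synthetases, Slc7a11 on those of ATF4 and NRF2 targets, and Sesn2 on those of ATF4 and p53 targets.

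**Figure D3:**
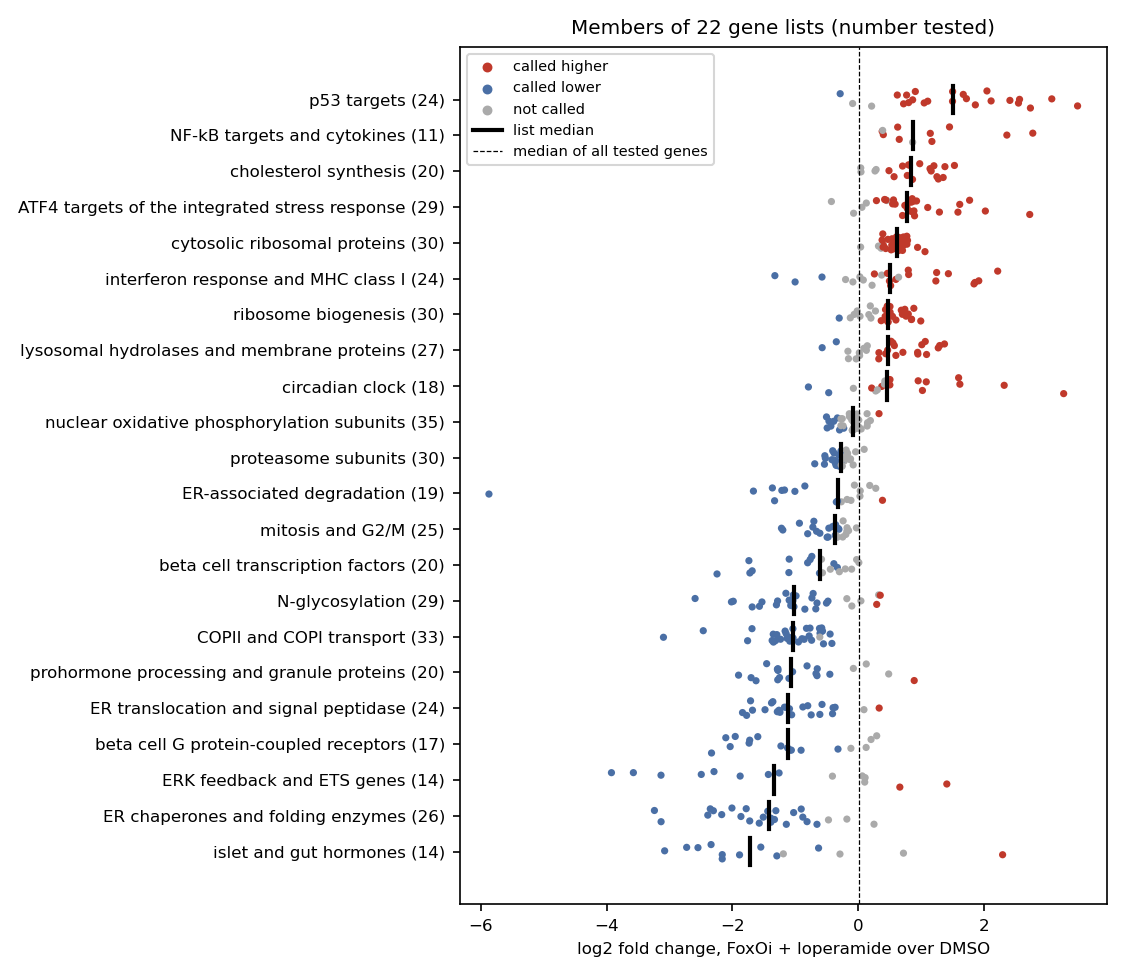
Log2 fold changes in the combination over DMSO (horizontal axis) of the tested members of 22 gene lists, ordered by their medians, with red points for genes called higher, blue for lower and grey for not called. Black bars mark list medians, from 1.5 for p53 targets to -1.72 for islet and gut hormones, and the dashed line marks the median of all tested genes at 0.01.

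Most genes listed as ERK feedback inhibitors or ETS factors fell, while immediate early and AP-1 genes were called in both directions. Of 14 ERK feedback and ETS genes 8 fell and 2 rose (list median -1.34), and 1 rose without combination replicate 2, DMSO replicate 1 or DMSO replicate 3. Etv5, an ETS factor, had 3.32, 2.94 and 1.95 CPM in the combination libraries, against 41.9, 42.1 and 41.5 CPM in the DMSO libraries, far apart (-3.92 ± 0.16, adjusted p = 5.33e-10). The ERK phosphatases Dusp6 and Dusp5 changed by -3.14 ± 0.14 and -2.29 ± 0.13, Etv4 by -3.57 ± 0.21 and the receptor kinase inhibitor Spry4 by -2.50 ± 0.18. Dusp16, a phosphatase that prefers the stress kinases JNK and p38, had 26.7, 23.4 and 32.5 CPM in the combination libraries, against 2.49, 1.99 and 2.49 CPM in the DMSO libraries and rose (3.57 ± 0.19, adjusted p = 3.32e-09). Of 19 immediate early genes 8 rose and 4 fell. Jun had 195, 167 and 235 CPM in the combination libraries, against 24.4, 25.6 and 21.4 CPM in the DMSO libraries, all combination libraries far above DMSO (3.07 ± 0.13, adjusted p = 7.23e-10), and Junb and Myc rose by 1.17 ± 0.20 and 0.97 ± 0.18. The orphan receptors Nr4a1, Nr4a2 and Nr4a3 changed by -2.34 ± 0.32, -1.84 ± 0.21 and -1.65 ± 0.31. Of 16 cAMP and CREB targets 8 fell and 3 rose (list median -0.36), with Crem at -1.72 ± 0.12 and the phosphodiesterase Pde10a at -1.20 ± 0.16. The EGF receptor ligand Areg had 8.16, 8.0 and 8.05 CPM in the combination libraries, against 0.384, 0.249 and 0.587 CPM in the DMSO libraries, which is low but without overlap (4.32 ± 0.25, adjusted p = 6.66e-09), while the ligand Hbegf changed by -1.22 ± 0.11 and the IGF receptor Igf1r by -1.45 ± 0.14.

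Of 24 interferon response and MHC class I genes 14 rose and 3 fell (list median 0.50). B2m, the light chain of MHC class I, had 121, 92.3 and 112 CPM in the combination libraries, against 21.3, 24.7 and 24.2 CPM in the DMSO libraries, with no overlap (2.22 ± 0.11, adjusted p = 2.17e-09), the peptide transporter Tap1 rose by 1.43 ± 0.15 and Irf9 by 1.25 ± 0.12. Of 11 NF-kB targets and cytokines with enough counts 9 rose and 0 fell (list median 0.86), Relb by 1.17 ± 0.10 and Tnfaip3, a brake on the pathway, by 1.45 ± 0.14. Of the 19 genes on that list 8 were too low to test. Beside these genes, the leukocyte marker Ptprc had 1, 0 and 0 counts in the combination libraries and 0, 0 and 1 in the DMSO libraries. Cd68, a lysosomal protein used as a macrophage marker, had 76, 71 and 83 counts in the combination libraries and 43, 30 and 22 in the DMSO libraries (1.12 ± 0.19, adjusted p = 0.000193), while Csf1r had 3, 1 and 0 counts in the combination libraries and 12, 6 and 8 in the DMSO libraries. The summed counts of the 5 macrophage markers ran from 116 to 138 per combination library and from 61 to 94 per DMSO library, and their part in the rise of these genes was not tested. Of 18 circadian clock genes 11 rose and 2 fell (list median 0.46). Bhlhe40, a repressor within the clock, had 54.7, 51.3 and 54.9 CPM in the combination libraries, against 5.05, 5.48 and 6.24 CPM in the DMSO libraries and rose (3.26 ± 0.12, adjusted p = 2.17e-10). Bhlhe41 rose by 1.59 ± 0.08, Hlf by 1.61 ± 0.12 and the repressor Ciart by 2.32 ± 0.29, while the activator Arntl changed by -0.79 ± 0.17 and Per2 by -0.47 ± 0.10.

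Most genes of cholesterol synthesis rose, and so did 8 of 15 genes of fatty acid synthesis. Of 20 tested enzymes of cholesterol synthesis 16 rose and 0 fell (list median 0.84). Msmo1, a sterol demethylase, had 170.1, 180.4 and 174 CPM in the combination libraries, against 62.9, 67.3 and 71.8 CPM in the DMSO libraries (1.38 ± 0.11, adjusted p = 2.24e-07). The groups did not overlap. Hsd17b7 rose by 1.53 ± 0.17 and Nsdhl by 1.35 ± 0.14. Of 19 genes of sterol uptake, sensing and efflux 8 rose and 2 fell, and 4 fell with the replicate block and 1 without combination replicate 2. Insig1, which holds the sterol sensor in the ER, rose by 0.89 ± 0.13 and the lysosomal cholesterol carrier Npc2 by 1.32 ± 0.08. The cholesterol exporter Abca1 had 5.99, 3.63 and 5.67 CPM in the combination libraries, against 28.7, 28.0 and 36.7 CPM in the DMSO libraries and fell without overlap (-2.60 ± 0.17, adjusted p = 2.39e-08). The sterol regulatory element, searched as ATCAC, then 1 base of any kind, then CCAC, was in 0 of the 15 promoter windows of cholesterol synthesis genes and in 73 of 27025 genes, so no window is shown for them. Of 15 genes of fatty acid synthesis 8 rose and 3 fell (list median 0.55, or 0.31 without DMSO replicate 2). Fatty acid synthase (Fasn) had 1062, 1159 and 1239 CPM in the combination libraries, against 461, 477 and 458 CPM in the DMSO libraries (1.31 ± 0.09). The elongase Elovl6 had 87.8, 101 and 97.8 CPM in the combination libraries, against 25.6, 33.8 and 37.9 CPM in the DMSO libraries (1.56 ± 0.16). Both rose without overlap. The desaturase Scd1 rose by 1.16 ± 0.14 and the carboxylase Acaca by 0.98 ± 0.12. Mlxipl, the glucose-responsive factor ChREBP that is known to drive lipogenic genes, had 86.7, 57.4 and 54.9 CPM in the combination libraries, against 529.9, 483 and 361 CPM in the DMSO libraries and fell (-2.79 ± 0.21, adjusted p = 3.65e-07), and Acly, which supplies acetyl-CoA, changed by -0.78 ± 0.09.

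Lysosomal genes rose more often than they fell. Of 27 lysosomal hydrolases and membrane proteins 17 rose and 2 fell (list median 0.47), and 1 fell without combination replicate 1, combination replicate 2 or DMSO replicate 3. Cd63 had 544, 487 and 565 CPM in the combination libraries, against 216, 195 and 206 CPM in the DMSO libraries, with no overlap (1.37 ± 0.09, adjusted p = 1.5e-08), progranulin (Grn) rose by 1.29 ± 0.10, the peptidase Tpp1 by 1.27 ± 0.11, cathepsin B (Ctsb) by 1.06 ± 0.11 and the calcium channel Mcoln1 by 1.01 ± 0.09. Cathepsin Z (Ctsz) changed by -0.57 ± 0.13. Of 18 subunits of the V-ATPase, the proton pump of the lysosome, 13 rose and 3 fell (list median 0.36). Rragd, a GTPase that tethers mTORC1 to lysosomes, had 277, 327 and 358 CPM in the combination libraries, against 44.6, 45.1 and 53.05 CPM in the DMSO libraries and rose (2.75 ± 0.13, adjusted p = 1.12e-09). The letters CACGTG, an E-box, were in 10 of 22 promoter windows of the lysosomal list, or 45.5%, and in 4 of 13 of the V-ATPase list, or 30.8%. Over all 27025 genes with a window, tested or not, 2187 held these letters, or 8.09%. A share over tested genes alone was not computed. Autophagy genes were called at about the shares of all tested genes (22.3% higher and 23.2% lower). Of 27, 6 were higher (22.2%) and 7 lower (25.9%), or 11 lower with the replicate block. Wipi1, which marks the growing autophagosome membrane, had 35.6, 32.2 and 40.9 CPM in the combination libraries, against 307, 314 and 394 CPM in the DMSO libraries and fell without overlap (-3.22 ± 0.14, adjusted p = 5.33e-10).

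Genes of developmental signals and of the cell surface were called in both directions, as were tested genes at large (22.3% higher and 23.2% lower). The TGF-beta and BMP list was near these shares, at 15.8% and 26.3%. Of 11 Wnt pathway genes with enough counts 6 rose and 4 fell. Wnt5a, a ligand of the branch without beta-catenin, had 2.56, 1.75 and 1.34 CPM in the combination libraries, against 18.2, 12.8 and 16.5 CPM in the DMSO libraries. Wnt4 had 27.0, 27.4 and 17.3 CPM in the combination libraries, against 109, 104 and 76.2 CPM in the DMSO libraries. Both ligands fell without overlap (-3.05 ± 0.22 and -2.01 ± 0.20). Axin2, a feedback target of beta-catenin, had 16.7, 19.4 and 17.9 CPM in the combination libraries, against 9.59, 9.58 and 9.69 CPM in the DMSO libraries and rose (0.90 ± 0.10, adjusted p = 4.67e-06). Rspo1, which strengthens Wnt signals, had 60, 49 and 60 counts in the combination libraries and 2, 3 and 0 in the DMSO libraries (4.82 ± 0.48). Of 14 Notch pathway genes 3 rose (5 with the replicate block) and 6 fell, with the ligand Dll1 at 2.09 ± 0.19 and Lfng, which modifies the receptor with sugar, at -2.89 ± 0.24. Of 19 genes of the TGF-beta and BMP pathway 3 rose (5 without DMSO replicate 3 or with the block) and 5 fell, with the activin subunit Inhbb at -3.97 ± 0.42 and the ligand Tgfb2 at -2.54 ± 0.29. The epithelial cadherin Cdh1 changed by -1.36 ± 0.10 and the tight junction protein Cldn1 by 1.07 ± 0.09. Of 10 tested genes that beta cells normally keep silent 3 rose and 4 fell, Igfbp4 and Ndrg2 among the falls at -2.02 ± 0.23 and -2.76 ± 0.34, and the other 10 on that list were too low to test. Of 21 genes of sphingolipid metabolism 9 rose and 8 fell, and 4 or 5 fell without combination replicate 1 or 3 or DMSO replicate 2 or 3. The ceramide synthase Cers5 rose by 1.07 ± 0.08. Of 18 genes of fatty acid oxidation 5 rose (27.8%) and 6 fell (33.3%), with a list median of -0.02.

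Most ribosomal protein genes rose and most mitosis genes fell. Of 30 cytosolic ribosomal protein genes 27 rose and 0 fell (list median 0.61), with Rpl23 at 1.06 ± 0.12, Rps4x at 0.77 ± 0.10 and Rack1 at 0.67 ± 0.10. These genes have many processed pseudogenes, whose reads the counting may divide, so the size of single rises is uncertain. The translation elongation factor Eef2 had 4035, 3664 and 4053 CPM in the combination libraries, against 2469, 2279 and 2159.5 CPM in the DMSO libraries (0.77 ± 0.08). Eef1a1, which brings tRNAs to the ribosome, had 3555, 3626 and 4522 CPM in the combination libraries, against 2271, 2359 and 2408 CPM in the DMSO libraries (0.73 ± 0.11). Each gene's groups were apart. Of 30 genes of ribosome biogenesis 21 rose and 1 fell (list median 0.47), and the fall was not called without combination replicate 2 or DMSO replicate 1 or 2. Nucleolin (Ncl) rose by 0.84 ± 0.09 and Utp15 by 0.85 ± 0.08. Proteasome subunits fell in 15 of 30 cases and rose in 0 (list median -0.27), and 25 fell with the replicate block. Of 25 mitosis genes 16 fell and 0 rose (list median -0.37). Cdc20, an activator of anaphase, had 65.6, 64.5 and 54.6 CPM in the combination libraries, against 163, 142 and 126 CPM in the DMSO libraries (-1.22 ± 0.15, adjusted p = 1.36e-05), and Plk1, a mitotic kinase, changed by -1.20 ± 0.15. Of 27 DNA replication genes 8 fell and 2 rose (4 with the replicate block), with the ribonucleotide reductase subunit Rrm2 at -1.27 ± 0.12. In bulk RNA, fewer dividing cells and less mRNA per cell cannot be told apart.

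Genes of oxidative phosphorylation had a median fold change near 0. Of 35 nuclear subunits of oxidative phosphorylation 8 fell and 1 rose (list median -0.08). Without combination replicate 2 or DMSO replicate 1 the number that fell was 3, and without combination replicate 3 or DMSO replicate 2 it was 4. The riser was not called without combination replicate 1 or DMSO replicate 3, and 2 rose without DMSO replicate 1 and 5 with the replicate block. Of 25 genes of the TCA cycle and pyruvate entry 7 rose and 4 fell (8 fell with the replicate block). Mpc1, a subunit of the mitochondrial pyruvate carrier, rose by 1.84 ± 0.15 and fumarase (Fh1) changed by -1.56 ± 0.13. Of 18 glycolysis genes 8 rose and 1 fell (list median 0.22), with the phosphofructokinase Pfkp at 1.08 ± 0.08. The falls numbered 2 without combination replicate 2 or DMSO replicate 3 and 3 with the block. Ldha, lactate dehydrogenase, which beta cells keep low, had 2.12, 1.31 and 3.23 CPM in the combination libraries, against 1.28, 1.31 and 1.32 CPM in the DMSO libraries. The groups overlapped and Ldha was not called (0.77 ± 0.32, adjusted p = 0.0665), although DESeq2 (0.0427), the replicate block (0.00933), no filter on low counts (0.0103) and the fit without combination replicate 2 (0.0146) called it. Slc16a1, the lactate transporter that beta cells also keep low, rose by 1.80 ± 0.17 (adjusted p = 1.01e-06).

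Most tested genes annotated on the mitochondrial chromosome were called higher. Of 18 tested, 12 rose and 0 fell, with a median of 1.09. The large ribosomal RNA mt-Rnr2 had 1217, 1147 and 855 CPM in the combination libraries, against 232, 209 and 172 CPM in the DMSO libraries, with no overlap (2.39 ± 0.17, adjusted p = 7.01e-08). The small one, mt-Rnr1, had 276, 289.8 and 197 CPM in the combination libraries, against 148, 105 and 102 CPM in the DMSO libraries (1.10 ± 0.21). Of 13 protein genes of that chromosome 9 were tested, and mt-Co2, mt-Co3, mt-Atp6 and mt-Atp8 had too few counts, 0 to 2 in a group's libraries together. Of the 9 tested 5 rose, mt-Nd2 by 1.25 ± 0.15 and mt-Nd1 by 0.84 ± 0.18. The predicted genes Gm29216, Gm10925, Gm28437 and Gm28661 are among the 10 highest genes by FPKM in DMSO, at log2 fold changes of -0.01 ± 0.20, 0.24 ± 0.13, -0.12 ± 0.17 and -0.09 ± 0.13, and none was called. In the same order, their mean levels were 3701, 4510, 3939 and 3177 CPM in the combination and 3720, 3816, 4295 and 3371 CPM in DMSO. As nuclear copies of mitochondrial sequence they may share reads with the mitochondrial genes, so the split between them is uncertain. The size of the mitochondrial rises is therefore uncertain too. Gm10925 was called with the replicate block (adjusted p = 0.0012), without DMSO replicate 1 (0.0205) and with no filter on low counts (0.0122).

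**Figure D4:**
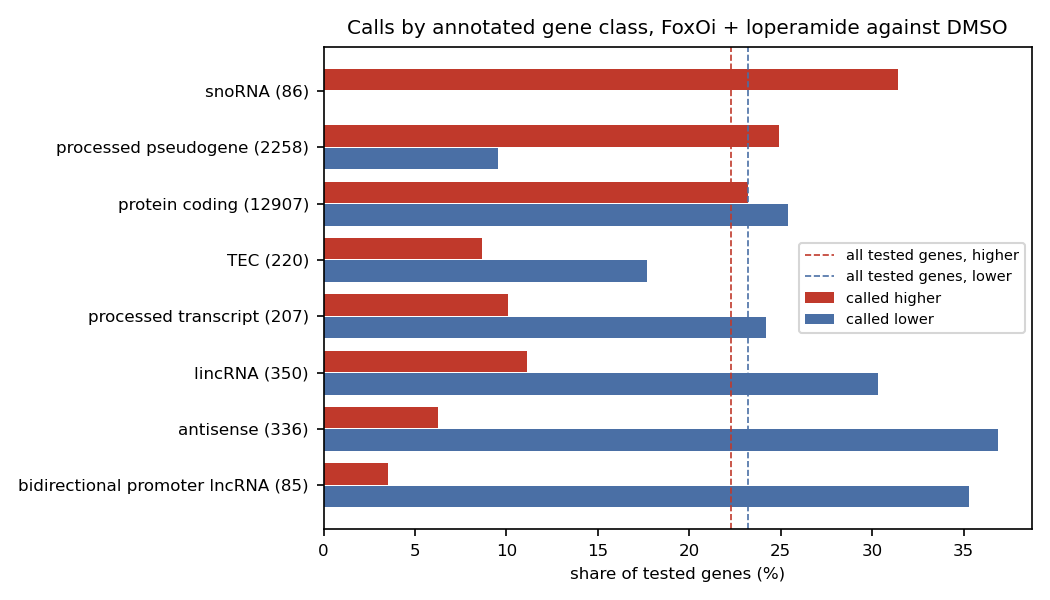
Share of tested genes called higher (red) and lower (blue) in the combination than in DMSO (horizontal axis, %) by annotated gene class, with the number tested in brackets and dashed lines for all tested genes at 22.3% and 23.2%. Antisense genes had 6.25% higher and 36.9% lower, and snoRNAs 31.4% higher and 0% lower.

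Falls outnumbered rises among long noncoding genes, and rises outnumbered falls among snoRNAs. Of 336 antisense genes 124 fell and 21 rose (median -0.51), of 85 bidirectional promoter lncRNAs 30 fell and 3 rose (median -0.61) and of 350 lincRNAs 106 fell and 39 rose (median -0.38). The setting that decides whether counting used the strand is not given in the sources used here, so reads of an antisense gene and of its partner cannot be told apart. Of 86 snoRNA genes 27 rose and 0 fell (median 0.75), and of 2258 processed pseudogenes 563 rose and 215 fell (median 0.17). Whether these reads belong to the snoRNAs or to their host genes was not tested. Nor was it tested whether they belong to the pseudogenes or to the genes they copy. The imprinted noncoding genes of the Dlk1-Dio3 region stood out by size: Meg3 had 5.60, 3.44 and 4.27 CPM in the combination libraries, against 65.2, 53.1 and 46.7 CPM in the DMSO libraries (-3.62 ± 0.18, adjusted p = 1.79e-09). Rian had 6.04, 5.31 and 6.34 CPM in the combination libraries, against 80.4, 81.3 and 83.6 CPM in the DMSO libraries (-3.79 ± 0.12, adjusted p = 9.21e-11). Mirg changed by -4.47 ± 0.35, and the coding gene Dlk1 of the same region by -1.69 ± 0.22. The groups overlapped for none of these genes, but for Meg3 and Rian this was a condition of their choice. Mirg and Dlk1 were chosen after their values were seen. Snhg12, a host gene of snoRNAs, rose by 1.72 ± 0.16, while Malat1, an abundant nuclear RNA, was not called (-0.16 ± 0.10, adjusted p = 0.212).

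Among genes of at least 10 CPM on average, the membrane-bound guidance ligand Sema6a rose most by the naming rule. It had 178.3, 125 and 147 CPM in the combination libraries, against 8.63, 6.41 and 9.10 CPM in the DMSO libraries, a change of 4.23 ± 0.19 (adjusted p = 1.97e-09), and its lowest combination library was far above the highest DMSO library. Stmn4, a microtubule regulator, rose by 3.78 ± 0.26 and Epha5, a guidance receptor, by 2.75 ± 0.27. The metalloproteinase gene Pappa2, which cleaves IGF-binding proteins, had 294, 346 and 361 CPM in the combination libraries, against 2854, 3686 and 5336 CPM in the DMSO libraries and fell by far more than the spread (-3.57 ± 0.29, adjusted p = 1.63e-06). C1qtnf1 changed by -4.74 ± 0.14, the vesicular nucleotide transporter Slc17a9 by -4.07 ± 0.19, the nicotinic receptor subunit Chrnb4 by -3.97 ± 0.22, the serotonin receptor Htr1d by -3.77 ± 0.36 and the prolactin receptor Prlr by -3.63 ± 0.24. Of 18 potassium channel genes 9 fell and 4 rose (list median -0.48) and of 23 calcium channel and handling genes 11 fell and 4 rose (2 without combination replicate 3; list median -0.31), with Kcnk16 at -1.89 ± 0.22 and Cacna1h at -2.77 ± 0.19. The calcium pump Atp2a2 of the ER was higher (0.42 ± 0.12, adjusted p = 0.0123), a call lost without combination replicate 3 (adjusted p = 0.0674) or DMSO replicate 1 (0.0526). Of 5 opioid receptor and peptide genes 4 fell and 0 rose, and 2 fell without combination replicate 2, combination replicate 3 or DMSO replicate 1. Oprm1, the main receptor of loperamide, had 22, 14 and 14 counts in the combination libraries and 35, 24 and 26 in the DMSO libraries (-0.93 ± 0.30, adjusted p = 0.0218), and its call was lost without combination replicate 2 (adjusted p = 0.0694) or 3 (0.0707) or DMSO replicate 1 (0.0837).

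The same 3 combination libraries were compared with each compound alone, so the comparisons that follow share them with the one above. Against FoxOi alone 4465 genes were called (26.6% of tested genes), 1926 higher in the combination (11.5%) and 2539 lower (15.1%). With the replicate block 7504 genes were called against FoxOi, 3638 higher and 3866 lower, and without FoxOi replicate 2 the higher ones numbered 1270. Against loperamide alone 6541 were called (38.9%), 3099 higher (18.4%) and 3442 lower (20.5%). The ER chaperones were lower in the combination than with FoxOi alone in 24 of 26 cases and lower than with loperamide alone in 13 of 26. Hyou1 had 262, 265 and 252 CPM in the combination, 689.9, 720.5 and 776 CPM with FoxOi, 419.7, 500.1 and 533 CPM with loperamide and 1333, 1328 and 1429 CPM in DMSO, and differed by -1.49 ± 0.09 from FoxOi (adjusted p = 4.07e-08) and by -0.90 ± 0.09 from loperamide (adjusted p = 3.4e-06). The combination libraries were the lowest of all 4 groups. COPII and COPI genes were lower than with FoxOi in 29 of 33 cases and lower than with loperamide in 17. The p53 targets were higher than with FoxOi in 14 of 24 cases and higher than with loperamide in 18, with Phlda3 at 1.15 ± 0.17 against FoxOi and 2.54 ± 0.19 against loperamide. Bax was at 0.96 ± 0.13 against FoxOi and 0.72 ± 0.13 against loperamide. Cdkn1a differed from loperamide (2.09 ± 0.12) and was not called against FoxOi (0.13 ± 0.12, adjusted p = 0.449). Cholesterol synthesis genes were higher than with FoxOi in 12 of 20 cases and higher than with loperamide in 11 (7 without Loperamide replicate 2). Fasn differed by 0.66 ± 0.09 from FoxOi and by 0.72 ± 0.09 from loperamide, and Elovl6 differed by 1.04 ± 0.15 from FoxOi and by 0.95 ± 0.15 from loperamide. The adenosine receptor gene Adora2b had 10.9, 8.13 and 12.5 CPM in the combination, 1.22, 0.878 and 0.974 CPM with FoxOi, 2.33, 1.60 and 1.87 CPM with loperamide and 0.703, 0.249 and 0.293 CPM in DMSO, and was higher in the combination than with FoxOi (3.35 ± 0.25, adjusted p = 1.94e-07) and than with loperamide (2.45 ± 0.24, adjusted p = 2.45e-06).

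Mafa, Pdx1, Gcg, Areg and Ldha lay between the 2 compounds. Beta cell transcription factors were higher in the combination than with FoxOi alone in 10 of 20 cases and lower in 3 (6 with the replicate block, and 1 without any of combination replicate 2 or 3 or FoxOi replicate 1 or 2). They were lower than with loperamide alone in 16 of 20 and higher in 0. Mafa had 162, 171 and 179.8 CPM in the combination, 90.8, 107 and 62.3 CPM with FoxOi, 764, 819 and 699.8 CPM with loperamide and 805, 846 and 782 CPM in DMSO, and differed by 0.98 ± 0.14 from FoxOi (adjusted p = 0.000149) and by -2.15 ± 0.15 from loperamide (adjusted p = 1.08e-07). Pdx1 differed by 0.40 ± 0.08 from FoxOi and by -0.50 ± 0.08 from loperamide. Gcg was lower than with FoxOi (-0.89 ± 0.20, adjusted p = 0.00484) and higher than with loperamide (2.27 ± 0.20, adjusted p = 3.58e-06). Areg averaged 8.07 ± 0.0829 CPM in the combination, 136 ± 27.8 CPM with FoxOi, 0.210 ± 0.0214 CPM with loperamide and 0.406 ± 0.170 CPM in DMSO (SD, n = 3 each), and was lower than with FoxOi (-4.07 ± 0.15) and higher than with loperamide (5.20 ± 0.30). Ldha was at -3.36 ± 0.25 against FoxOi and 2.06 ± 0.41 against loperamide. The ERK feedback genes were lower than with FoxOi in 10 of 14 cases and lower than with loperamide in 6, with Etv5 at -4.41 ± 0.16 against FoxOi and -0.76 ± 0.19 against loperamide. Mitosis genes were higher than with FoxOi in 4 of 25 cases and lower in 0 (14 higher with the replicate block, and 2 without combination replicate 2 or FoxOi replicate 2), and higher than with loperamide in 19. Cytosolic ribosomal protein genes were higher than with FoxOi in 7 of 30 cases and lower in 0, and higher than with loperamide in 29. Against FoxOi the ribosomal count was 26 with the replicate block, 18 with no filter on low counts, 14 without FoxOi replicate 1 and 2 without combination replicate 1, FoxOi replicate 2 or FoxOi replicate 3. Ins2 was not called against FoxOi (0.07 ± 0.13, adjusted p = 0.742) and was lower than with loperamide (-1.19 ± 0.13, adjusted p = 6.15e-06). Ins1 was lower than with FoxOi (-0.40 ± 0.13, adjusted p = 0.0389) and than with loperamide (-1.26 ± 0.13, adjusted p = 5.5e-06). The Ins1 call against FoxOi was lost without combination replicate 2 (adjusted p = 0.0824) or 3 (0.136). It was also lost without FoxOi replicate 1 (0.124) or 2 (0.136) and with limma on FPKM (0.0771). Pcsk1 was lower than with FoxOi (-1.17 ± 0.09, adjusted p = 2.69e-07) and not called against loperamide (0.05 ± 0.09, adjusted p = 0.695). Meg3 was lower than with FoxOi (-0.996 ± 0.19, adjusted p = 0.00112, or 0.061 with limma on FPKM) and than with loperamide (-3.73 ± 0.18). The transcript mt-Rnr2 was higher than with FoxOi (1.55 ± 0.16) and not called against loperamide (-0.26 ± 0.16, adjusted p = 0.218, or 0.00499 with the replicate block and 0.043 without Loperamide replicate 3).

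**Figure D5:**
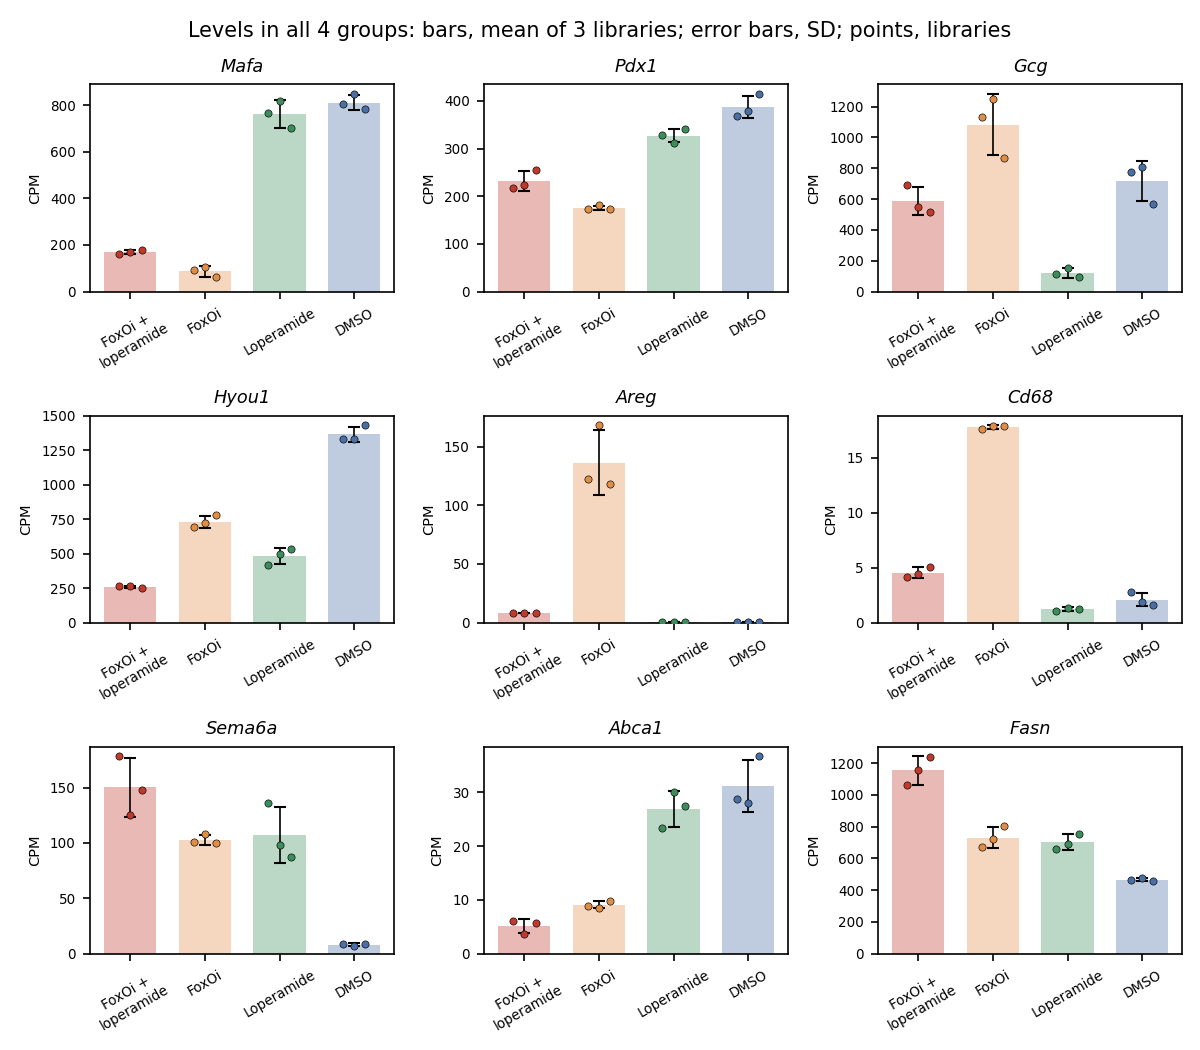
CPM of 9 genes in the combination, FoxOi, loperamide and DMSO (left to right in each panel), with bars for the mean of 3 libraries, error bars for the SD and points for libraries. Hyou1 and Abca1 are lowest in the combination, with Hyou1 in the combination at a mean of 259.7 ± 7.10 CPM (SD, n = 3), Areg and Cd68 are highest with FoxOi alone, and Mafa in the combination lies between FoxOi alone and loperamide alone.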

How the data were processed

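The mRNA of Min6 cells was sequenced in 12 libraries, 3 each with FoxOi_Loperamide, FoxOi, Loperamide and DMSO, from TruSeq stranded libraries read as 50-base single reads on an Illumina HiSeq, per the labels' protocols. The authors deposited whole-number counts per gene and the FPKM of the same genes. STAR 2.7.5a, Picard 2.19.2, DESeq2 and the builds GRCm38 and mm10 are named in the submitters' processing notes. For the counting tool and its strand setting, nothing is given in the sources used.

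The test on the deposited counts was that of edgeR 4.0.16, run with R 4.3.3 (filterByExpr with a minimum count of 10, TMM scaling, robust quasi-likelihood fit, group as the only term) over all 12 libraries, which share 1 estimate of the spread. P-values were adjusted with the Benjamini-Hochberg method over 16808 genes. Standard errors are the log2 fold change divided by the root of the F statistic. CPM are counts relative to the TMM-scaled library size. The fits were tested on simulated data with few genes changed, rises and falls balanced, and independent libraries. In the real data 45.5% of tested genes were called and same-numbered libraries deviated together, so the simulation cannot show how the fits perform there. Because counts depend on transcript length, levels in CPM were compared between groups and not between genes. The exceptions are the cut at 10 CPM and the ranking of genes by gain or loss of CPM, which depend on length.

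The groups share replicate numbers. Same-numbered combination and DMSO libraries deviated together from their group means (correlations over genes of 0.507, 0.121 and 0.399), as did combination and FoxOi libraries (0.451, 0.142 and 0.355), while the correlations of combination and Loperamide libraries were 0.328, 0.0915 and 0.341. What the numbers mark is not stated. The alternatives were RLE size factors, DESeq2 1.42.0, no filter on low counts, the 2 groups alone, the replicate number as a block, limma 3.58.1 on log2(FPKM + 1) and the removal of each library in turn.

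The groups and gene lists were chosen with earlier results of these data known. The text names a fixed panel, the 12 largest rises and falls at a mean of at least 10 CPM with groups apart, the 8 largest gains and losses of CPM, up to 4 called genes of each list with the smallest adjusted p, and the 10 highest genes by FPKM. The following were chosen after their values were seen: Creld2, Hspa5, Hsp90b1, Pdia6, Cela2a, Tubb3, Fkbp11, Manf, Trib3, Ddit3, Ppp1r15a, Atf4, Hsd17b7, Nsdhl, Insig1, Scd1, Acaca, Acly, Ctsb, Ctsz, Adora2b, mt-Rnr1, mt-Co2, mt-Co3, mt-Atp6, mt-Atp8, Mirg, Dlk1, Snhg12, Malat1, Mdm2, Bax, Ccng1, Eda2r, Sytl4, Pcsk2, Cpe, Pam, Ldha, Pax6, Gal, Gast, Ppy, Nts, Cacna1c, Gipr, Glp1r, Irs2, Fbxo32, Tnfsf10, Nr4a3, Spry4, Ciart, Arntl, Per2, Derl1, Ern1, Sec61a2, Junb and Myc. Some items are not reported here.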

Additional observations from a re-analysis of the deposited data

How the results depend on the processing

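The number of genes called between the combination and DMSO was 7642, and it was 7638 with RLE size factors, 7522 with DESeq2, 7938 with no filter on low counts, 6799 with the 2 groups alone, 9915 with the replicate block, 7438 with limma on log2(FPKM + 1), and 6437 to 7300 when a library was left out. Genes called in both of a pair of fits kept their direction in each of these alternatives. Against FoxOi the replicate block called 7504 genes, 3638 higher and 3866 lower, against 4465, 1926 and 2539 without it. With a library left out the genes higher than with FoxOi numbered 1270 to 1859, the lowest without FoxOi replicate 2, and the cause was not tested. Against Loperamide the block called 9014 genes.

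Log2 fold changes near 0 changed sign. Gm29216 was at 0.0104 with no filter, 0.0056 with the 2 groups alone, 0.00427 with the replicate block and 0.00348 with limma on FPKM. Over the fits that left out a library Gm29216 ranged from -0.17 to 0.18, Gm28437 from -0.28 to 0.054 and Gm28661 from -0.20 to 0.076, each highest without DMSO replicate 1. Ins2 against FoxOi ranged from -0.0077 without combination replicate 1 to 0.17, and Pcsk1 against Loperamide from -0.041 without Loperamide replicate 1 to 0.13. Against DMSO the replicate block changed the calls of Gcg, Foxo1, Gm10925, Atf4, Ldha and Ppy, whose values are given above. It changed the call of no other named gene that was checked, and Tubb3 was not checked. With 3 libraries a group, a change close to the spread between libraries was not detectable, and for genes of few counts the counting error adds to it.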
